A study of Mus musculus with 2 samples.

Results

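Cytosolic ribosomal protein genes encode the proteins of the ribosome that translates nuclear messages. Members were taken by symbol from the annotated protein-coding genes: symbols of Rps or Rpl followed by a number, with Rpsa and the stalk genes Rplp0, Rplp1 and Rplp2. The rule used no measured value. It took 83 of the 55536 annotated genes, of which 32 belong to the small (40S) and 51 to the large (60S) subunit. The members lay on 19 chromosomes, with 4 on the X chromosome. Among the genes the rule left out were Fau, which encodes a ribosomal protein fused to a ubiquitin-like protein, Rack1, a scaffold protein on the small subunit, and the Rpl36a paralog Rpl36al. Tissue-restricted paralogs such as Rpl10l, Rpl39l and Rpl3l were kept.

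Polyadenylated RNA came from whole-cell extracts of C57BL/6J mouse bone marrow-derived macrophages, primary macrophages grown from marrow, exposed to 100 ng/mL of a stimulus for 300 min. The stimulus is Lipid A in one label and lipoprotein A, a protein, in others, so it is only called the stimulus. The labels give no genetic modification, sex or age. There was 1 group of 2 libraries, biological replicates 1 and 2, from separate biosample records of a shared donor record. No unstimulated sample was analysed here, so each value is a level after stimulation or a difference between the libraries, which may be technical, and none is a response. Each library was quantified in 2 ways: a first quantification (gene and transcript tables in the RSEM layout) and a second (a transcript table in the kallisto layout, summed here per gene).

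Each ribosome holds a single copy of most of these proteins, and the acidic stalk proteins are the main exception. Their messages are abundant, short and stable, and they typically begin with a 5′ terminal oligopyrimidine (TOP) tract, a C followed by pyrimidines, through which Larp1 and the kinase mTOR control their translation. Such messages have been copied back into mammalian genomes many times, so most ribosomal protein genes have processed pseudogenes of nearly the same sequence, which matters when short reads are assigned to genes.

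A pattern like the TOP tract was found in the reference sequence of many members. RefSeq start windows were found for 63 of the 83 members (75 windows, as a gene can have several starts). A C followed by at least 4 pyrimidines, on the sense strand, began exactly at the annotated start in 13 of the 75 windows (17.3%), against 2.51% of 32851 windows of all genes. Within 10 bases on either side of the start it was found in 54.7% of the members' windows and in 30.7% of all windows. A match describes the letters only. The windows of 4 members are shown as examples of matches at different distances from the annotated start. Whether these runs act as TOP tracts was not tested. The windows run from 10 bases before the annotated start to 19 bases after it, on GRCm38.p6, with the longest matching run in capitals. Rpl35a lies at chr16:33056472-33056501 (plus strand), Rpl38 at chr11:114668570-114668599 (plus), Rps12 at chr10:23787190-23787219 (minus) and Rps9 at chr7:3704031-3704060 (plus).
Rpl35a: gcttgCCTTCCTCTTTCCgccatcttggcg
Rpl38: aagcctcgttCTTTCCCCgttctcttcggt
Rps12: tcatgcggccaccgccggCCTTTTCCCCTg
Rps9: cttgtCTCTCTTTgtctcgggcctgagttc
The run began at the annotated start in Rpl38, 5 bases before it in Rpl35a and Rps9, and 8 bases after it in Rps12.

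Depth was 38078399 expected counts for replicate 1 and 63705317 for replicate 2, of which the members held 494102 and 677092. All 10 macrophage markers reached 1 TPM (the share of transcripts, scaled by length) in both libraries, and 8 of the 10 reached 100 TPM. The libraries differed in markers of other cells. Neutrophil markers (10 genes) summed to 508 TPM in replicate 1 but 18.7 TPM in replicate 2, with Ly6g listed at 0 in both. S100a8 (127 and 5.63 TPM), S100a9 (316 and 10.2 TPM) and Ngp (52.4 and 2.34 TPM) held most of these sums. Cxcr2, Mpo, Elane and Retnlg were under 1 TPM in both libraries. The 4 platelet markers summed to 767 and 107 TPM, of which Pf4 made up 753 and 105. Itga2b (1.35 and 0.09 TPM) and Gp9 (0.66 and 0 TPM) were near the floor. In bulk RNA, fewer cells of a type and less RNA per cell cannot be told apart. Whether these transcripts came from neutrophils or platelets was not tested. T, B and NK cell, erythroid, mast cell, fibroblast and progenitor markers summed to under 2 TPM per list, except for Cd4 (44.8 and 79.9 TPM).

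The ribosomal protein genes were among the abundant transcripts of the stimulated macrophages, led by Rps24 and Rplp1. They held 4.94% of all TPM in replicate 1 and 3.62% in replicate 2 (4.28% ± 0.934, SD, n = 2), but 1.30% and 1.06% of the expected counts. The median member stood at 516 and 336 TPM in replicates 1 and 2, far above the median of all genes at 1 TPM or more (12.4 and 12.7 TPM). In both libraries, 80 of the 83 members reached 1 TPM, 75 reached 100 TPM and 2 reached 1000 TPM. The 75 members at 100 TPM or more spanned a 17.0-fold range of mean TPM, from 159 TPM for Rpl37 upward. TPM was lower in replicate 2 for 67 members and higher for 15. The same share by TPM was not taken over all genes. By counts scaled for depth (further on), 54 of 80 members kept were lower in replicate 2, beside 6202 of 12226 genes. Across the 83 members the libraries' log2(TPM + 1) had a Pearson correlation of 0.953, which is a description over genes that share the same libraries.

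**Figure D1:**
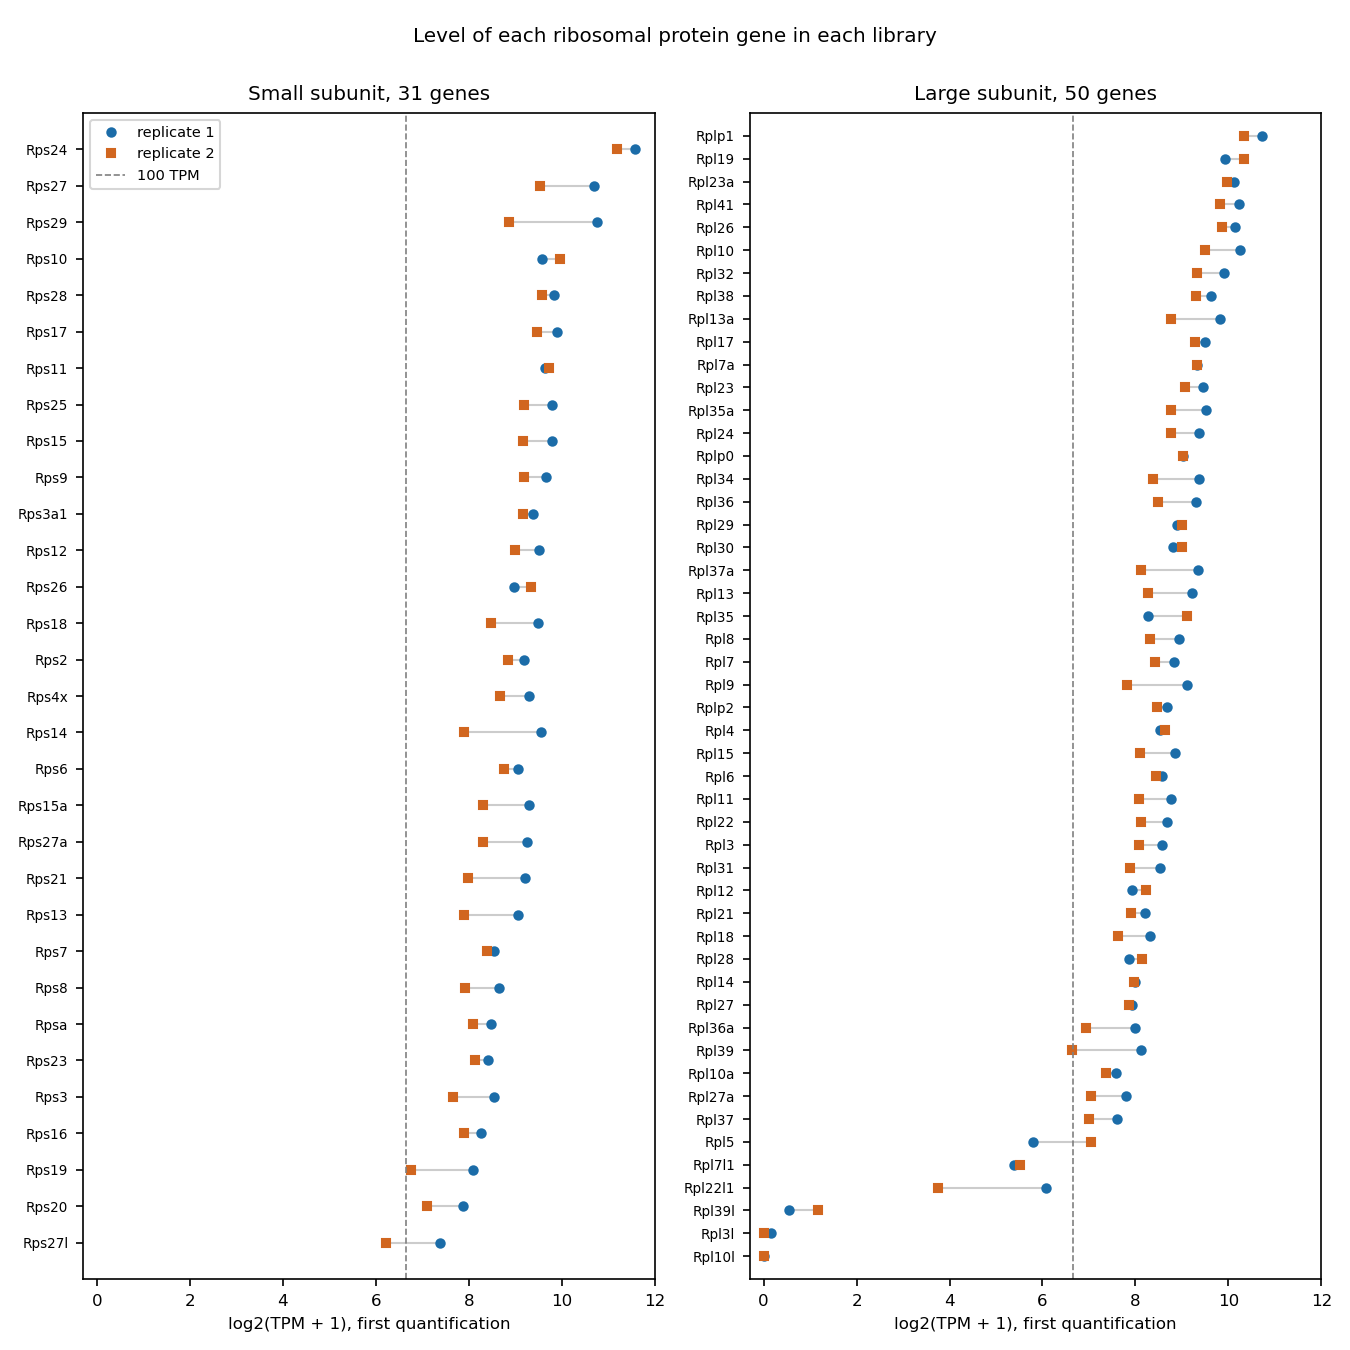
Level of 31 of the 32 small-subunit (left) and 50 of the 51 large-subunit (right) genes, as log2(TPM + 1) of the first quantification, with blue circles for replicate 1, orange squares for replicate 2 and a dashed line at 100 TPM. The members lie in a compact band above the line in both libraries except for a tail of mostly paralogs at the bottom, and most squares lie left of their circles.

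Rps24, a small-subunit protein mutated in some patients with Diamond-Blackfan anaemia, had the highest level of all members, 3061 and 2351 TPM (2706 ± 502, SD, n = 2). Rplp1, an acidic stalk protein, followed with 1694 and 1295 TPM (1494 ± 282). Only these 2 genes exceeded 1000 TPM in both libraries. Rps27, a zinc-finger protein of the small subunit, had 1664 TPM against 736 TPM, and Rps29, another zinc-binding protein of that subunit, 1729 TPM against 463 TPM. Both were higher in replicate 1. Rpl19 went the other way, with 976 and 1298 TPM. The 10 highest also held Rpl23a (1119 and 999.5 TPM), Rpl41 (1193 and 909 TPM), Rpl26 (1132 and 926 TPM) and Rpl10 (1217 and 722 TPM). The ranges of these 4 genes overlap one another, so their order is not beyond the spread between libraries. Rpl41 encodes the shortest protein of the set. Its whole coding sequence (GENCODE M21 transcript) is shown to give the size of such a message.
Rpl41: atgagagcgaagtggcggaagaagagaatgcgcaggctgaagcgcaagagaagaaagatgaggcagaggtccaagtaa
It is 78 bases with the stop codon.

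TPM divides a count by an effective length, the number of positions from which a fragment of the library's size can start, so very short transcripts gain most. The tables imply a mean fragment length of 279.89 bases in replicate 1 and 247.01 bases in replicate 2, and 26 and 23 members had an effective length under 300 bases. Over the 80 members with a mean of at least 1 TPM, Spearman's rho of mean TPM and effective length was -0.50. It was -0.14 when TPM was recomputed from the full length, an alternative chosen after seeing the data. Rps24 stayed in first place and Rplp1 took rank 3, after Rpl19. Rps27 moved from rank 3 to rank 26 and Rps29 from rank 5 to rank 21, so their places among the highest members rest on the effective length. The share of TPM held by all members was 3.25% ± 0.576 by full length (SD, n = 2).

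**Figure D2:**
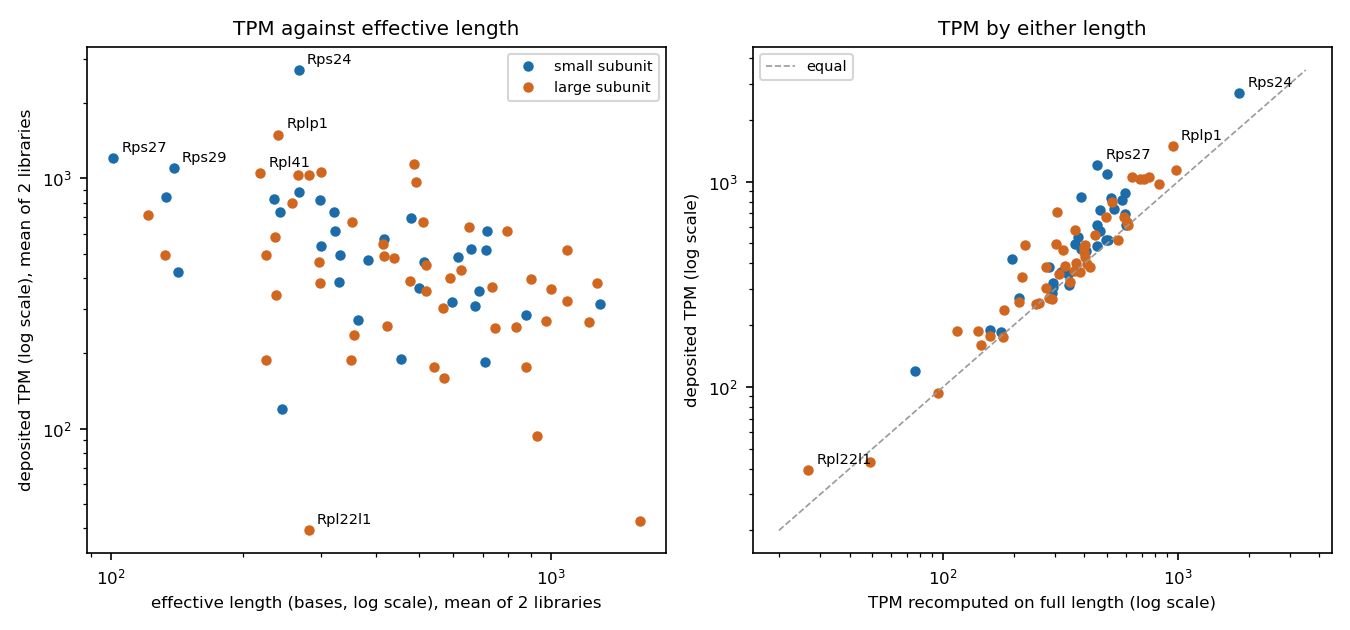
Left, mean deposited TPM of each member with a mean of at least 1 TPM against its mean effective length in bases, both on log axes, with small-subunit genes in blue and large-subunit genes in orange. Right, the same TPM against TPM recomputed from the full length; points above the dashed line gain from the effective length, and Rps27 is among the farthest above it.

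Small-subunit genes had the higher median. It was 616 and 382 TPM in replicates 1 and 2, against 447 and 316 TPM for the large subunit. The log2 ratio of large to small was -0.46 in replicate 1 and -0.28 in replicate 2 (-0.37 ± 0.13, SD, n = 2). The levels overlapped: in replicate 1 the quartiles ran from 393 to 797 TPM in the small and from 253 to 681 TPM in the large subunit. In replicate 2 they ran from 249 to 579 TPM and from 227 to 526 TPM. The median ratio kept its sign under every alternative tried, but it was nearer to even, at -0.24, by full length. The summed TPM was nonetheless larger for the large subunit (26235 and 20637 TPM) than for the small (23149 and 15532 TPM), which has fewer genes. All 32 small-subunit genes stood at 100 TPM or more in replicate 1 and 31 in replicate 2, where Rps27l was the exception. In the large subunit 45 of 51 did so in each library.

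The stalk of the large subunit, where elongation factors bind, is built on Rplp0 with Rplp1 and Rplp2. Rplp0 was nearly even between the libraries, with 516 and 520 TPM (518 ± 2.69, SD, n = 2). Rplp2 had 412 and 354 TPM (383 ± 40.9). Rplp1 stood far above both in each library. By full length, Rplp1 ranked 3, Rplp0 16 and Rplp2 60 of the 83 members.

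Rpl5, Rpl11 and Rpl23 bind the ubiquitin ligase Mdm2, and Rpl5 and Rpl11 carry the 5S RNA. Rpl23 had 701 and 532 TPM and Rpl11 436 and 270 TPM. Rpl5 was far lower, with 54.8 and 132 TPM, and its level differed between the quantifications (values further on). Mdm2 itself had 166 and 158 TPM. Rps3, a small-subunit protein that can also bind NF-kB, had 369 and 201 TPM. Rpl13a, known for silencing translation of inflammatory messages after interferon gamma, had 907 and 435 TPM. Rps27a, a ubiquitin fusion, had 607 and 317 TPM. Fau, another fusion and outside the rule, had 617 and 554 TPM.

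Paralogs that most tissues lack were at or near 0. Rpl10l, a testis paralog of the X-linked Rpl10, had no count in either library; a count of 0 allows up to 3 counts. Rpl3l, the striated-muscle paralog of Rpl3, had 3 counts in replicate 1 and 0 in replicate 2, while Rpl3 had 377 and 270 TPM. Rpl39l, the testis-enriched paralog of Rpl39, had 6 and 18 counts (0.46 and 1.24 TPM), against 277 and 97.8 TPM for Rpl39. These were the only 3 members under 1 TPM in either library. The coding sequences of Rpl39 and Rpl39l, 156 bases each, differ at 23 positions, shown in capitals because they tell reads of the pair apart.
Rpl39: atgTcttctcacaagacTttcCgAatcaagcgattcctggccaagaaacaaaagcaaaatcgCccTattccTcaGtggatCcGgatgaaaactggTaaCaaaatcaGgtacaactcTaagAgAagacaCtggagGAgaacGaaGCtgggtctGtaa
Rpl39l: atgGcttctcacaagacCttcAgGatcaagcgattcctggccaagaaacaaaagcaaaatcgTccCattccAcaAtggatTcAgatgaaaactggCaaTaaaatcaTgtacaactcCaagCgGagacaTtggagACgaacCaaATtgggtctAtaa

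Of the broadly expressed paralogs, Rps27l, Rpl22l1 and Rpl7l1 were present at lower levels than their partners, and Rpl36al was not. Rps27l, a small-subunit paralog known as a p53 target, had 165 and 73.4 TPM, against 1664 and 736 TPM for Rps27. The high place of Rps27 rests on the effective length, and by full length the ranks were 26 for Rps27 and 78 for Rps27l. The pair is 76.1% identical over the 255 coding bases. Their first 90 coding bases are shown with the 24 differing positions in capitals, since these separate reads of the pair.
Rps27: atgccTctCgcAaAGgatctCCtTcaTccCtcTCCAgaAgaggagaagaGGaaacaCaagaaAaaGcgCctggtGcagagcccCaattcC
Rps27l: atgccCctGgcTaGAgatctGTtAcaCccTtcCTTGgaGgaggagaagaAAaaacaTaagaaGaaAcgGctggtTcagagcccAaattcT
Rpl22l1, a paralog whose level Rpl22 is known to repress, had 66.0 and 12.6 TPM, while Rpl22 had 408 and 278 TPM. Rpl7l1, a distant relative of Rpl7, had 41.0 and 44.9 TPM, and Rpl7 452 and 343 TPM. Rpl36a had 253 and 122 TPM, and its paralog Rpl36al, 87.9% identical in coding sequence, was higher in both libraries at 281 and 151 TPM. That order turns when the sequence relatives of Rpl36a are added (564 and 286 TPM in all), of which the pseudogene Rpl36a-ps2 shares 100% of its 31-base words with Rpl36a and holds 311 and 164 TPM. Relatives were sought for members only, so none were added to Rpl36al. Rps4x, the X-linked gene whose paralog Rps4l was not analysed here, had 626 and 410 TPM. The identity of the other pairs was 54.9% for Rpl7 and Rpl7l1, 68.2% for Rpl22 and Rpl22l1, 73.3% for Rpl3 and Rpl3l and 84.8% for Rpl10 and Rpl10l.

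The lowest 10 members by mean TPM were, from the bottom, Rpl10l, Rpl3l, Rpl39l, Rpl22l1, Rpl7l1, Rpl5, Rps27l, Rpl37, Rpl27a and Rpl10a. Rpl37 had 193 and 126 TPM, Rpl27a 221 and 131 TPM and Rpl10a 189 and 165 TPM. The values of these last 3 genes overlapped, so their order is within the spread between libraries. The places of Rpl27a and Rpl5 change when sequence relatives are added. The pseudogene Gm7536 shares 100% of its words with Rpl27a and held 643 and 399 TPM, and with relatives added Rpl27a had 864 and 530.0 TPM and Rpl5 448 and 483 TPM.

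Between the libraries, counts of most ribosomal protein genes were somewhat lower in replicate 2, and a few members differed by far more. Of the 83 members, 80 had enough counts to be kept with 12226 genes in all, and ratios of counts scaled by TMM (trimmed mean of M values) were taken as replicate 2 over replicate 1. The median log2 ratio was -0.23 over the 80 members and -0.01 over all genes kept. Below 0 lay 54 of the 80 members, beside 6202 of the 12226 genes kept. With 1 library on each side there is no p-value, and the interval given for a gene covers counting error only. Past 1.5-fold were 23 members (28.8%), which is fewer in proportion than the 35.8% of all genes kept. All genes kept were not matched to the members for abundance. Of the 23 members, 18 were lower in replicate 2 (22.5%, against 19.1% of all genes) and 5 were higher (6.25%, against 16.7%). With library totals in place of TMM the split was 27 lower and 2 higher, where the median of all genes was -0.19. With the trend over GC content and length removed it was 13 lower and 6 higher, with a median of -0.14 beside 0.01 over all genes. The shares of all genes past 1.5-fold between libraries were taken with TMM only.

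The small subunit had 10 genes lower and 2 higher of 32 (median log2 ratio -0.29), and the large subunit 8 lower and 3 higher of 48 (median -0.21). The small-subunit genes past the fold on the low side were Rps29, Rps14, Rps19, Rps13, Rps27l, Rps21, Rps27, Rps18, Rps15a and Rps27a, and those of the large subunit Rpl22l1, Rpl39, Rpl9, Rpl37a, Rpl15, Rpl13, Rpl36a and Rpl34. The median length of the leading transcript was 680 bases over the members and 2519 bases over all genes kept. Spearman's rho across the 80 members was 0.32 for ratio and leading length and 0.05 for ratio and GC content. The 1067 other genes with a leading transcript of 499.75 to 887 bases, the members' quartiles, had a median ratio of -0.13. The neutrophil markers S100a8 (127 and 5.63 TPM) and S100a9 (316 and 10.2 TPM) and the platelet marker Pf4 were also lower in replicate 2. The 10 macrophage markers had a median log2 ratio of 0.45, with 4 higher and 0 lower past 1.5-fold. Cd68 (2496 and 5400 TPM) and Csf1r (279 and 665 TPM) were among those 4. Adgre1 (-0.37), Fcgr1 (-0.12) and Mertk (-0.05) lay below 0, and the other macrophage markers above it. The part of these cell-type markers in the members' ratios was not tested.

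**Figure D3:**
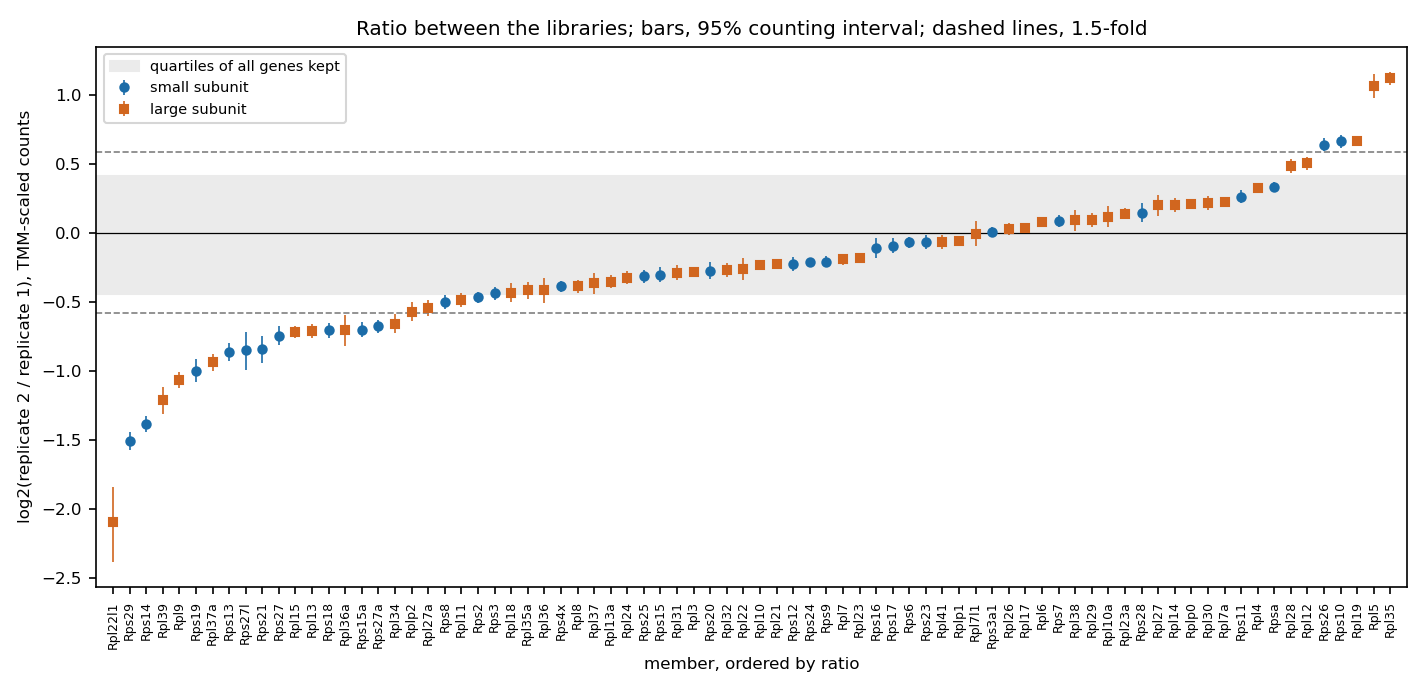
Log2 ratio of replicate 2 over replicate 1 for 78 of the 80 members kept, ordered by ratio, from TMM-scaled counts; bars are 95% counting intervals, dashed lines mark 1.5-fold and the grey band spans the quartiles of all genes kept. Rpl22l1 lies lowest at -2.09, Rpl35 and Rpl5 lie highest above 1, and most members fall inside or just below the band.

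Rpl22l1 had the lowest ratio. It had 445 counts in replicate 1 and 152 in replicate 2 although replicate 2 was deeper, a log2 ratio of -2.09 (95% exact binomial interval -2.39 to -1.84), or 4.27-fold lower. Its partner Rpl22 was nearly even, with 2305 and 2837 counts and a ratio of -0.26. Rps29 had 5525 and 2861 counts (-1.51, interval -1.58 to -1.45). Rps14, a small-subunit gene deleted in a form of myelodysplastic syndrome, had 5984 and 3379 counts (-1.39, interval -1.45 to -1.33). Rpl39, at the peptide exit tunnel, had 2320 and 1475 counts (-1.21). Rpl9 (-1.07) and Rps19 (-0.998), the gene most often mutated in Diamond-Blackfan anaemia, completed the 6 lowest. These 6 stayed past 1.5-fold on the low side under all 7 alternatives of scaling, filter, prior count, GC and length, quantification and unit.

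On the high side Rpl35 had 4597 counts in replicate 1 and 14743 in replicate 2, a log2 ratio of 1.12 (interval 1.07 to 1.17), and Rpl5 had 1434 and 4429 counts (1.06, interval 0.98 to 1.15). Rpl19 (0.66), Rps10 (0.66) and Rps26 (0.64) followed. Rpl35 and Rpl5 both share sequence with a gene elsewhere whose counts went the other way or were larger. For Rpl35 this is Gm2000 on chromosome 1, annotated as protein coding, with 1925 counts in replicate 1 and 596 in replicate 2. With such relatives added, the ratio of Rpl35 was 0.67 and that of Rpl5 was 0.24. In the second quantification, the ratio of Rpl5 alone was -0.38, so its direction depends on the quantification.

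Of the 17 members linked to Diamond-Blackfan anaemia, a failure of red-cell production caused by loss of a ribosomal protein gene copy, every gene was at 1 TPM or more and 16 were at 100 TPM or more in both libraries. Their medians were 499 and 436 TPM in replicates 1 and 2. Rps29, Rps19, Rps27 and Rpl15 were past 1.5-fold on the low side and Rpl5, Rps10 and Rps26 on the high side, or 4 and 3 of the 17, beside 19.1% and 16.7% of all genes kept. The direction of Rpl5 turns in the second quantification (log2 ratio -0.38). The list's median log2 ratio, -0.22, was close to the -0.23 of all members.

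Genes that work with the ribosome were compared through lists, beside the 19.1% of all genes kept that were lower and the 16.7% that were higher past 1.5-fold. Elongation factors and other genes known for TOP messages (20 genes, all at 1 TPM) had medians of 256 and 223 TPM and a median log2 ratio between libraries of 0.04, with 2 genes lower and 3 higher past 1.5-fold. Eef1a1, which brings aminoacyl-tRNA to the ribosome, had 4110 and 4953 TPM. Pabpc1, the poly(A)-binding protein, had 640 and 1675 TPM (log2 ratio 1.33), unlike the members' median. The 2 lower past 1.5-fold were Hnrnpa1 (-0.77) and Eif3e (-0.72). Ribosome assembly and RNA polymerase I genes (24 genes) had medians of 9.5 and 8.02 TPM and a median ratio of -0.30, with 8 lower and 0 higher. The farthest was Nop58, a box C/D snoRNP core protein, with 28.3 and 11.1 TPM (-1.16). Of 11 listed regulators linked to ribosomal proteins or their translation, 10 were found. Their median log2 ratio was 0.46, with 1 lower and 3 higher. Myc had 3.07 and 7.48 TPM (1.53), Mtor 9.87 and 12.3 TPM (0.45) and Larp1, the TOP-binding protein, 114 and 148 TPM (0.55). Larp4 (-0.95) was the 1 regulator past the fold on the low side, and Eif4ebp1 (-0.23) also lay below 0. Mitochondrial ribosomal protein genes (83 genes, 79 kept) stood far lower, with medians of 18.5 and 14.0 TPM. Their median ratio was -0.29, with 14 lower and 2 higher.

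The quantifications placed most members alike and a few in entirely different places. On log2(TPM + 1) the Pearson correlation across members was 0.910 in replicate 1 and 0.866 in replicate 2. By counts, the second quantification was lower past 1.5-fold for 5 members in replicate 1 and 9 in replicate 2, or 6 and 11 in either direction. The share of all genes with at least 10 counts was 1.92% and 2.03% on the low side and 22.4% and 23.6% in either direction. The median log2 ratio of second to first TPM was -0.27 in replicate 1 and -0.09 in replicate 2 over the members (-0.18 ± 0.13, SD, n = 2), against -0.01 and 0.01 over all genes. By counts it was 0.04 in both libraries, against 0.14 and 0.11 over all genes at 1 TPM or more in either quantification.

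Rps12, a small-subunit protein, had 5598 and 7066 counts in the first quantification and 187 and 161 in the second. Rpl12, of the stalk base, had 5798 and 12118 counts in the first and 105 and 88.3 in the second. Rpl5 had 1434 and 4429 in the first and 240 and 261 in the second. Rpl10 had 13157 and 16523 in the first and 8096 and 3905 in the second. In each of these 4 genes both libraries were lower in the second quantification. Rpl10a and Rpl14 followed in mean ratio of TPM, with log2 ratios in replicate 2 of -0.96 and -1.12. In the other direction, Rpl41 had 6150 and 8662 counts in the first and 10689 and 15394 in the second. By TPM, Rpsa led on the high side, and Rpl41, Rpl21, Rpl11, Rpl3l and Rpl7l1 followed. On that side 0 members in replicate 1 and 1 in replicate 2 were past 1.5-fold by TPM. On the low side there were 10 in each library. The share of all genes past 1.5-fold was taken by counts only, so these TPM counts have no background beside them. Rpl11 had 436 and 270 TPM in the first quantification and 411 and 314 TPM in the second.

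Counts that were lower in a member were matched by higher counts in its sequence relatives, which are other genes with at least 50% of their 31-base words in the member's coding transcripts. There were 323 such relatives of 71 members, of which 302 are annotated as pseudogenes, 10 as protein coding and 8 as miRNAs. In 32 of them every word was shared. Rpl21 had the most, with 19. The 12 members with none included Rps3, Rps15, Rps21, Rps27l, Rpl4, Rpl22, Rplp2, Rpl7l1, Rpl39l, Rpl3l and Rpl10l. Relatives held 6.23% and 6.67% of the summed counts of members and relatives in the first quantification, and 9.31% and 13.5% in the second.

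Rps12-ps3, on chromosome 19 (59322290 to 59322783, plus strand, mm10) and annotated as protein coding, had 93.3 and 73.2 counts in the first quantification and 5876 and 8415 in the second. Rps12 itself lies on chromosome 10 (23785183 to 23787275, minus strand). The pseudogene's 494 bases align to the Rps12 message with 0 mismatches. Gm10275, a processed pseudogene of Rpl12 on chromosome 10, went from 2050 and 794 counts to 8067 and 13141, with 0 mismatches over 634 bases. Gm15500, which copies 1018 bases of Rpl5 with 0 mismatches, held 7233 and 10727 counts in the first quantification and 8903 and 15596 in the second, more than Rpl5 in both. Rpl10-ps3 went from 739 and 906 counts to 6163 and 13943, with 0 mismatches over 740 bases. For comparison, Rpl14-ps1 differs from Rpl14 by 4 mismatches and 1 gap over 653 bases, and went from 169 and 237 counts to 1438 and 4453. Stretches of 60 coding bases show how little there is to separate reads, with capitals at positions that differ.
Rps12: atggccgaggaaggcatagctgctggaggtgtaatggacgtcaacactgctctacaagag
Rps12-ps3: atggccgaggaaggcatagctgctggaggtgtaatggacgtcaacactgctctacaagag
Rpl10: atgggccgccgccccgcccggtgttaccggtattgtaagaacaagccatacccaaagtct
Rpl10-ps3: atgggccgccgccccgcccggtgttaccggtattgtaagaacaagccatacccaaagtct
Rpl14: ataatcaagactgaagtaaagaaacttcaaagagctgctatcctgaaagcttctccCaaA
Rpl14-ps1: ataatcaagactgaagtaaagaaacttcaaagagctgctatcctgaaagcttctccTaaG
The first 2 pairs have no capitals, so a read within these stretches fits the gene and its copy equally well, and the Rpl14 pair has 2.

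Counts of a member and its relatives together were nearly the same in both quantifications. With relatives added, 0 members were past 1.5-fold on the low side in either library, and on the high side 0 in replicate 1 and 1 in replicate 2. That one is Rpl3l, with 0 counts in the first and 2 in the second. The Pearson correlation of log2(TPM + 1) was then 0.991 in each library. Rps12 with its relatives had 5981 and 8511 counts in the first and 6065 and 8662 in the second. Rpl12 with its relatives had 7941 and 13081 in the first and 8300 and 13429 in the second.

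**Figure D4:**
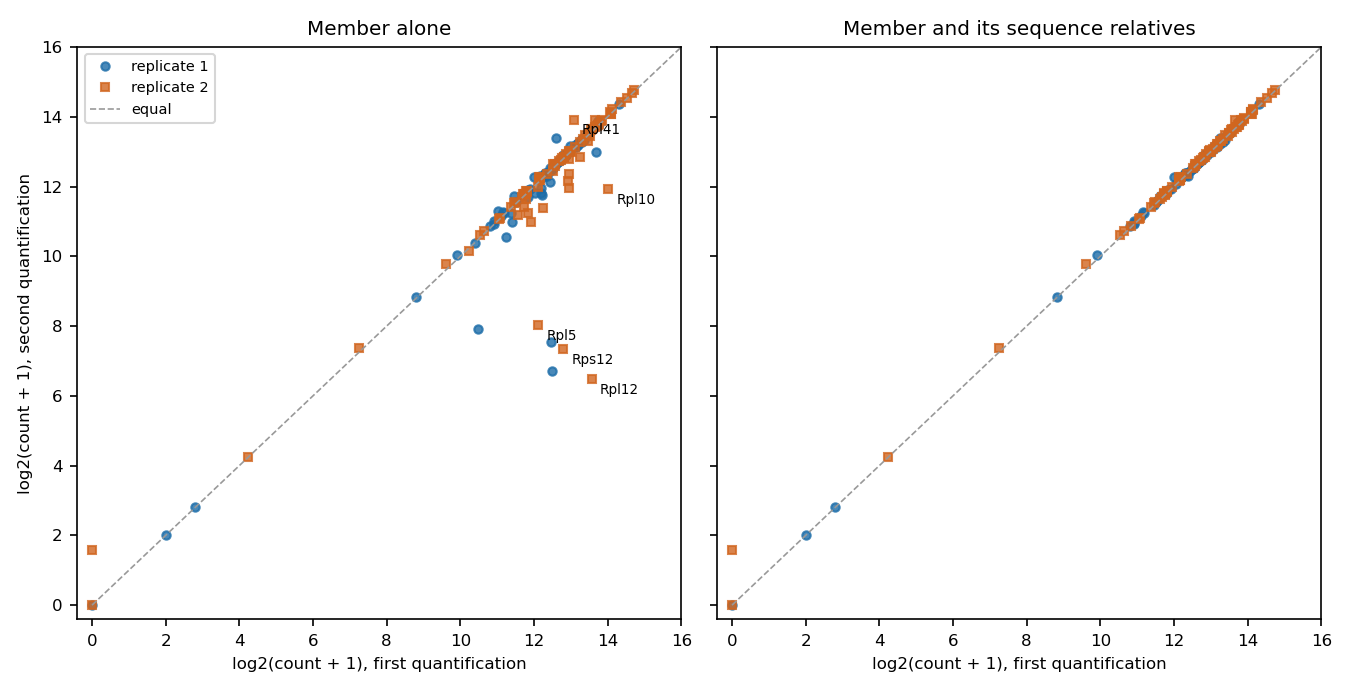
Log2(count + 1) of the second against the first quantification for each member, alone (left) and with its sequence relatives added (right), with replicate 1 in blue, replicate 2 in orange and a dashed line of equality. Rps12, Rpl12 and Rpl5 lie far below the line on the left, and with relatives added all members but Rpl3l lie within 1.5-fold of it.

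A further pair of relatives was singled out after their values were seen. Rps6-ps4, on chromosome 2, has 750 bases that align to Rps6 with 0 mismatches. It had 976 counts in replicate 1 and 6960 in replicate 2 in the first quantification, and 0 and 8596 in the second. Rps6, the substrate of the S6 kinases, had 8048 and 11320 counts in the first and 9245 and 10165 in the second. The log2 ratio between libraries was -0.07 for Rps6 alone and 0.46 with its relatives. Gm10076, annotated as a lincRNA on chromosome 14, aligns to Rpl41 over 381 bases with 2 mismatches and 1 gap. It held 3670 and 5863 counts in the first and 2.58 and 8.12 in the second, the reverse of the pseudogenes above.

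The members differ in how much of their message is their own. The share of 31-base words of the leading coding transcript that occur in no other gene was lowest in Rps27 (1.27%), Rpl36 (5.95%), Rpl9 (6.5%) and Rpl10 (7.67%), and it was 91.3% in Rps3. Rps12 had 16.2% and Rpl12 50.2%. Among those with a low share, Rps27 had 3815 and 3356 counts in the first quantification and 3903 and 3557 in the second, while Rpl10 had log2 ratios of second to first counts of -0.70 and -2.08.

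Most members were read as a single coding transcript. Transcripts annotated as protein coding held 96.1% of the members' TPM in replicate 1 and 94.9% in replicate 2, those marked for nonsense-mediated decay 2.28% and 2.35%, and those with a retained intron 1.41% and 2.48%. In 52 of the 80 members at 1 TPM, a single transcript held at least 90% of the gene's TPM in both libraries. For Rps24 it was Rps24-201, with 91.1% and 94.7%.

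A non-coding class led in at least 1 library for 6 members. Rps20-201, a retained-intron transcript of 582 bases, held 89.4% of the TPM of Rps20 in replicate 1 and 83.0% in replicate 2, and 84.4% and 79.8% in the second quantification. The coding transcript Rps20-203 is annotated with 3706 bases and held 10.3% and 14.6%. Rps16-203, also with a retained intron, held 62.2% and 56.2%, and the coding Rps16-201 14.5% and 11.0%. Rpl5-202, with a retained intron, held 51.2% and 73.8% in the first quantification but 14.7% in replicate 1 of the second. Rpsa was led by Rpsa-206 (nonsense-mediated decay, 71.6%) in replicate 1 and by the coding Rpsa-201 (82.6%) in replicate 2. In the second quantification Rpsa-206 led in both libraries, with 77.1% and 59.1%. Rpl13a was led by the coding Rpl13a-214 in replicate 1 (43.7%) and by the retained-intron transcript Rpl13a-213 in replicate 2 (30.4%).

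The leading transcript differed between the libraries in 9 members. Besides Rpsa and Rpl13a these included Rpl10, Rpl29, Rpl30, Rpl31, Rps3 and Rpl7l1, each with coding transcripts in both libraries. Rpl10 was led by Rpl10-211 (60.4%) in replicate 1 and by Rpl10-201 (85.4%) in replicate 2, and Rpl10-211 was at 0.2% in replicate 2. In the second quantification it was at 67.9% and 0.9%, so both quantifications gave it a large share in replicate 1 alone.

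**Figure D5:**
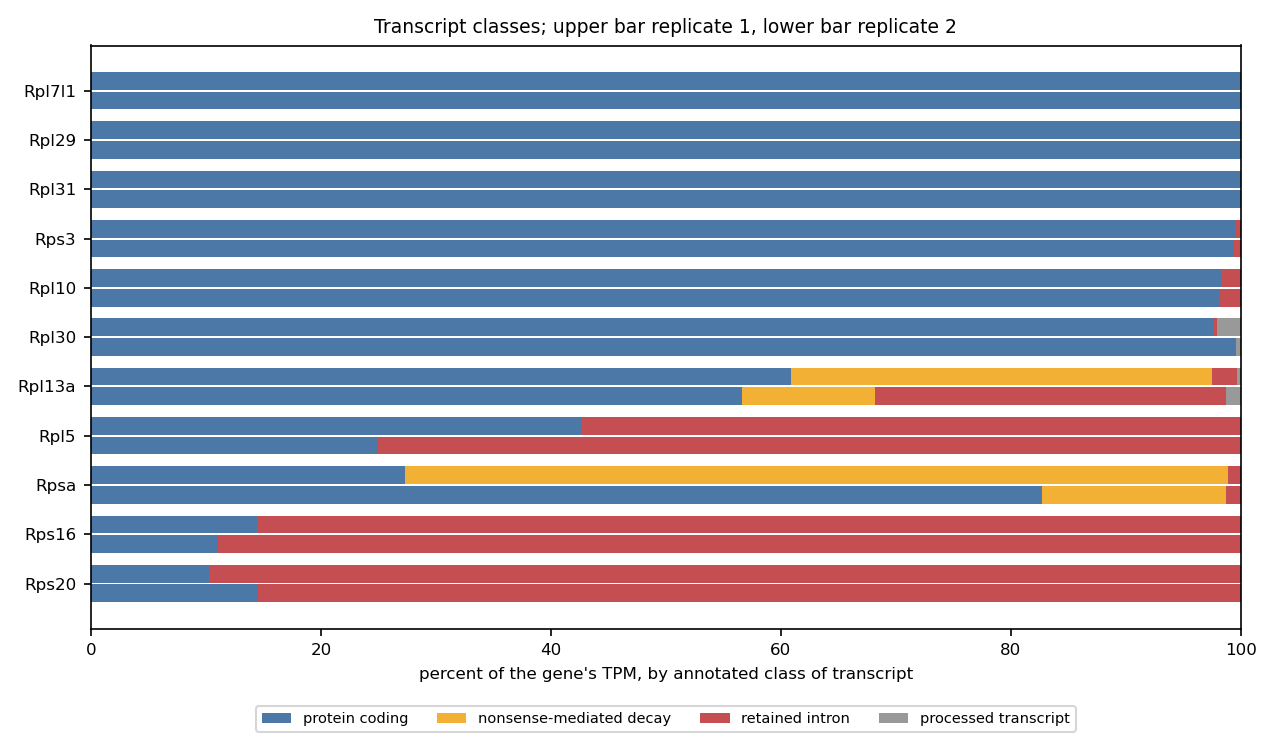
Percent of each gene's TPM in transcripts of each annotated class, for 11 of the 12 members led by a non-coding transcript or by different transcripts in the libraries, with replicate 1 as the upper and replicate 2 as the lower bar. Rps20 and Rps16 are mostly retained intron in both libraries, and Rpsa is mostly nonsense-mediated decay in replicate 1 and mostly coding in replicate 2.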

How the data were processed

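Tables were deposited per library on mm10 with GENCODE M21, per the accompanying notes. Neither the aligner nor the quantifier programs are named in the labels or headers (not given in the sources used here). Expected counts in the deposited gene tables were taken as estimated fragments without normalization, with shared reads divided among genes. Deposited TPM values are scaled by effective length to a fixed total per library. The deposited percent column gives each transcript's share of its gene's TPM. Whether counting used strand is not stated, so antisense partners may share reads.

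Expected counts were rounded, filtered (filterByExpr) and TMM-scaled in edgeR 4.0.16 (R 4.3.3). Log2 ratios used a prior count of 2, and intervals are exact (Clopper-Pearson, 95%). Depth was 38078399 and 63705317 counts, and intervals cover counting error only. With 1 group there was no test between groups. The ratio step was tested on simulated counts. DESeq2 1.42.0 gave alternative size factors. Other alternatives were library totals, no filter, another prior count, GC and length, the second quantification, TPM, member filters, other denominators and each library alone.

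Named genes are the 10 highest and 10 lowest members, those under 1 TPM, paralogs, stalk genes, the 6 largest ratios each way between libraries and quantifications, and unusual leading transcripts. Members and lists were chosen with earlier results of these data known. Of the lists, Znrd2 was not matched. A few genes that the rule takes are counted but not named or plotted by name.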

Additional observations from a re-analysis of the deposited data

How the results depend on the processing

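The members' share of TPM (4.28%) was 1.18% as a share of expected counts, 2.18% without the 27 members of effective length under 300 bases and 3.25% by full length, and 3.62% to 4.94% with either library alone. The log2 ratio of large to small subunit (-0.37) was -0.24 by full length, -0.27 with relatives added and -0.31 over members at 1 TPM or more. It was -0.84 as a difference of mean log2(TPM + 1), in which the large-subunit paralogs under 1 TPM weigh more than in a median. With either library alone it was -0.46 to -0.28. The median ratio between libraries (-0.23) was -0.41 by library totals, where the median of all genes was -0.19, -0.16 without a filter, -0.14 with GC and length removed and -0.47 from log2(TPM + 1). From log2(TPM + 1), 38 members were past 1.5-fold (36 lower in replicate 2), against 23 by counts. The share of all genes was not taken for log2(TPM + 1). The ratio of Rpl5 reversed to -0.38 in the second quantification. Of 96 values of 12 named members under alternatives, 83 kept their direction and side of 1.5-fold. The 7 that fell inside it were Rps26, Rps10 and Rpl19 by library totals and by TPM, and Rpl5 with relatives added. The count at 100 TPM (75) was 50 when the 27 members of effective length under 300 bases were left out of the count. With all members kept it ranged from 70 in the second quantification to 77 with replicate 1 alone. It was 76 with replicate 2 alone. The ratio of quantifications (-0.18) was -0.27 to -0.09 by library. Adding relatives and using full length were chosen after seeing the data. No paired analysis was possible because there is 1 group. With 2 libraries of unequal depth, differences under the spread between them were not detectable.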
